A study of Mus musculus with 16 samples.

Results

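The 10 genes described here make, load and control MHC class II, the surface molecule that shows peptides to CD4 T cells. They are H2-Aa, H2-Ab1 and H2-Eb1 (chains of the classical class II molecules), Cd74 (the invariant chain), Ciita (the class II transactivator), H2-DMa, H2-DMb1 and H2-DMb2 (chains of the peptide exchange factor H2-DM), and H2-Oa and H2-Ob (chains of its inhibitor H2-O). They were chosen by name for their role, and all 10 were found among the 17128 genes of the plasmacytoid dendritic cell (pDC) table and the 17721 genes of the conventional dendritic cell (cDC) table. RNA-seq had been run on sorted splenic DCs of C57BL/6 mice aged 6 to 8 weeks. The controls, called WT, were Trim33 fl/fl mice, which carry the floxed alleles without Cre. The knockouts, called cKO and labelled Trim33-/-, were Trim33 fl/fl mice with Itgax-Cre, in which the promoter of the CD11c gene drives Cre, so that deletion follows CD11c expression. The pDC groups held 3 WT and 3 cKO libraries, the type 1 cDC (cDC1) groups 2 each, and the type 2 cDC (cDC2) groups 3 each. Each library was a pool of several mice, with more mice in the cKO pools.

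A class II molecule is an α chain paired with a β chain. It is built in the endoplasmic reticulum around the invariant chain, which blocks the groove and directs the complex to endosomes. There proteases trim the invariant chain to a short fragment, CLIP, and H2-DM exchanges CLIP for peptides, while H2-O holds H2-DM back. Transcription of these genes depends on CIITA, a coactivator that binds no DNA itself but docks on the RFX, CREB and NF-Y proteins bound to the X and Y boxes of class II promoters. In DCs, class II is the route by which captured antigen reaches CD4 T cells, and cDCs are known for more of it than resting pDCs.

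Promoter entries from RefSeq (GRCm38.p6) were found for 7 of the 10 genes, and not for H2-Ab1, Ciita or Cd74. Below are the bases from 150 to 31 before the annotated start of 6 genes whose level the results turn on, and of H2-Eb2, a further class II β gene. They are shown 5′ to 3′ on the gene's own strand so that letter matches to the box cores can be seen beside the changes. Capitals mark matches to the letters ATTGG (the Y box core) or GNNACNGAT (a core of the X box), each searched on both strands.
H2-Aa (minus strand, chr17:34287854-34287973): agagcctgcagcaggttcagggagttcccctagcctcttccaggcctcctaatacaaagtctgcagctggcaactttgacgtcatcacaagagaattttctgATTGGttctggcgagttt
H2-Eb1 (plus strand, chr17:34305717-34305836): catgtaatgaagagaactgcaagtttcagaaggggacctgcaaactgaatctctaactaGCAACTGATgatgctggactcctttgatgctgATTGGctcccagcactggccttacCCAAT
H2-DMb1 (plus strand, chr17:34153041-34153160): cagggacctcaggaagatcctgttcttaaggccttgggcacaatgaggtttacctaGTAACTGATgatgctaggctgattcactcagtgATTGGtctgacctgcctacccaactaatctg
H2-DMb2 (plus strand, chr17:34145099-34145218): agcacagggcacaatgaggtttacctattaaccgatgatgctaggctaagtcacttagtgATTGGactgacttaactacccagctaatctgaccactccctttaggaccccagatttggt
H2-Oa (plus strand, chr17:34092229-34092348): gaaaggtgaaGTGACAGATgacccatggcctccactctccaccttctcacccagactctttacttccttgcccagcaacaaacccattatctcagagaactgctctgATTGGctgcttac
H2-Ob (plus strand, chr17:34238755-34238874): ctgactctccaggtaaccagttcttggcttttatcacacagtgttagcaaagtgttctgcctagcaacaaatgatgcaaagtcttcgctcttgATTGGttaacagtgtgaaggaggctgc
H2-Eb2 (plus strand, chr17:34325525-34325644): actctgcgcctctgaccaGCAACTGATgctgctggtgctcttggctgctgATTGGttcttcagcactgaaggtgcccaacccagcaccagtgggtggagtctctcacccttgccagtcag
All 7 genes printed hold the Y box core in this stretch, and H2-Eb1, H2-DMb1, H2-Oa and H2-Eb2 hold the X box letters as well. Over the whole entries, from 250 bases before to 50 after the start, 7 of the 7 members held the Y box core and 4 the X box letters, H2-Ob with its only X box match 33 bases after the start on the other strand. H2-DMa had 2 entries and held the Y box core in one of them, at position -198 from the start. Of all 32851 mouse promoter entries of that length, 37.4% held the Y box core, 7.82% the X box letters and 3.18% both. The matches are letters and not measured binding, and a stretch without them may hold a site spelled otherwise. On the gene's strand the X box letters and the Y box core start at -140 and -43 in H2-Oa. They start closer together in H2-Eb1 (-91 and -59), H2-DMb1 (-94 and -61) and H2-Eb2 (-132 and -100). H2-Oa, H2-DMa, H2-DMb2, H2-DMb1, H2-Ob, H2-Ab1, H2-Aa and H2-Eb1 all lie on chromosome 17, between 34092379 and 34316674.

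Depth was even. The FPKM values gave whole reads best at a depth of 17.9 to 20.25 M reads per library, and 3 reads on a transcript of 2 kb were worth 0.138 to 0.181 TPM (transcripts per gene, scaled to a fixed library total), far under every value of the 10 genes. Trim33, the targeted gene, ranged from 20.6 to 23.8 TPM in WT pDCs and from 11.7 to 16.5 in cKO pDCs, from 15.5 to 18.2 and from 7.71 to 7.88 in WT and cKO cDC1s, and from 17.2 to 20.6 and from 7.13 to 8.07 in WT and cKO cDC2s. The groups did not overlap in any subset, and the gene values of the remaining RNA do not show which exons it holds. Markers known for each subset separated the cDC subsets, but the sums of the cDC lists did not separate cDCs from pDCs. The 10 cDC1 markers summed to between 4026 and 4254 TPM in WT cDC1s, against 233 to 275 in WT cDC2s and 3951 to 4326 in WT pDCs. Irf8, a gene of that list, was alone at 3563 to 3933 TPM in WT pDCs. In the same libraries 4 of the 10 cDC1 markers stayed under 1 TPM throughout, so that sum does not show the whole list in pDCs. The 10 cDC2 markers summed to between 1735 and 1978 in WT cDC2s, against 42.8 to 45.8 in WT cDC1s and 1772 to 1899 in WT pDCs. The 10 pDC markers summed to between 18590 and 18800 in WT pDCs, against at most 350 in any cDC library.

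The class II genes were among the most abundant of DCs. Cd74 was the most abundant gene in all 16 libraries. H2-Aa stood between place 2 and place 18 and H2-Ab1 between place 3 and place 34 in the order of TPM within a library, while Ciita stood between place 340 and place 3567. Together the 10 genes took 3.03% to 3.28% of all TPM in WT pDCs, 7.63% to 8.14% in WT cDC1s and 6.19% to 7.42% in WT cDC2s. In the cKO libraries the share was 2.05% to 2.65% in pDCs, 5.94% to 6.00% in cDC1s and 6.78% to 7.59% in cDC2s, so that the genotypes were apart in pDCs and cDC1s and overlapped in cDC2s. The pDC and cDC values stand in separate tables, so levels are set side by side between them and no test was made. The study describes its sorted splenic cDCs as MHC II+ and its pDCs by CD11c and SiglecH alone, in a check of Trim33 deletion, and the gate of the sequenced sort is not given separately in the sources used here. If that gate was used, class II protein was part of the choice of cDCs.

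**Figure D1:**
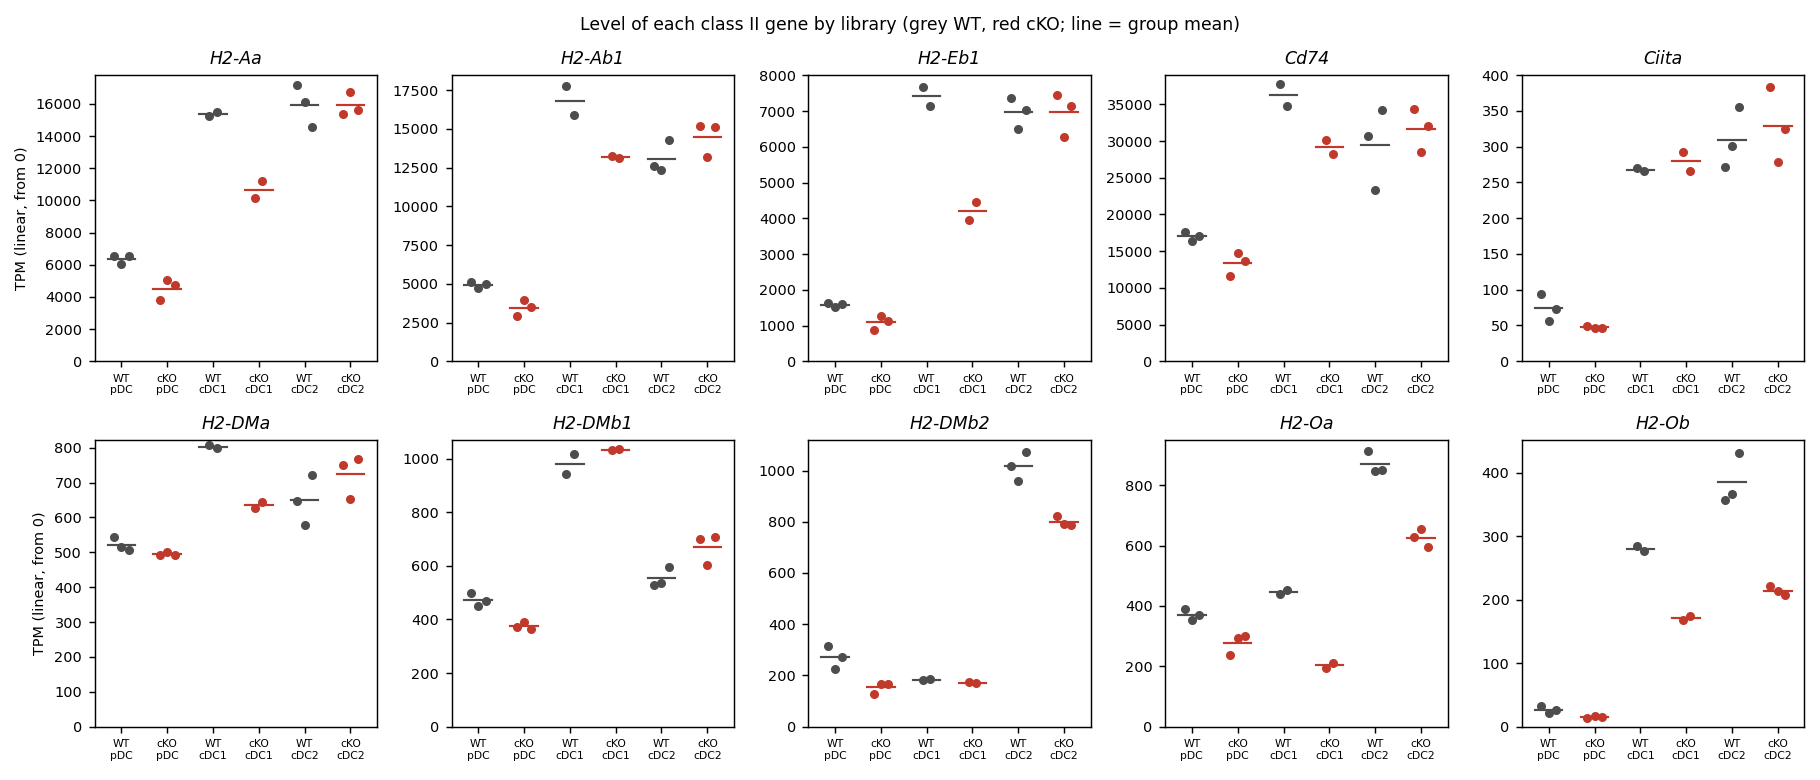
TPM of each class II gene (vertical axes, linear and from 0, with a different range for each gene) in each of the 6 groups (horizontal axes). A point is a library and a line is the mean of its group, with WT in grey and cKO in red. All 3 cKO pDC libraries lie under all 3 WT pDC libraries for each of the 10 genes, and H2-Oa and H2-Ob lie lower in cKO than in WT libraries of all 3 subsets.

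Changes with genotype were read from limma on log2(TPM + 1), and a gene counts as called at an adjusted p (Benjamini-Hochberg over all genes tested) of at most 0.01 with a log2 change of at least 0.5, the limits that the study set for DCs. In bulk RNA, a smaller share of cells that express a gene and less RNA per cell cannot be told apart. In pDCs all 10 genes were lower in every cKO library than in every WT library, against 16.7% of all 11299 genes tested. None of the 10 was called, against 1.05% of all genes in either direction (119 genes, and 335 with the replicate number as a block, which left the count of the 10 at 0). At an unadjusted p under 0.05 there were 9 of the 10, with no all-gene share counted at that limit. Judged by an adjusted p up to 0.05 alone there were 6, all lower, against 1.61% of all genes. With the block that count was 8 of the 10, against 6.17% of all genes, as H2-Eb1 (adjusted p = 0.0217, limma) and Ciita (adjusted p = 0.0175) passed as well. Their median log2 change was -0.51, beside -0.05 over all genes.
In cDC1s 4 of the 10 genes fell (H2-Oa, H2-Eb1, H2-Ob and H2-Aa) and none rose, against 6.56% of all 11411 genes that fell. In every cKO cDC1 library 8 of the 10 were lower than in every WT one, against 24.1% of all genes. Their median log2 change was -0.34, beside 0.17 over all genes. Median-of-ratios scaling moved that all-gene median to 0.02 and the called genes of cDC1s from 1806 higher and 749 lower to 1067 each. In cDC2s 1 gene fell, H2-Ob, against 3.56% of all genes, and 3 of the 10 were lower without overlap, against 19.2%. Their median there was 0.04, beside -0.03. With only 2 libraries per genotype in cDC1s, leaving out cKO cDC1 library 1 left 1 call there (H2-Oa), and leaving out WT cDC1 library 1 left 2 (H2-Oa and H2-Ob).

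**Figure D2:**
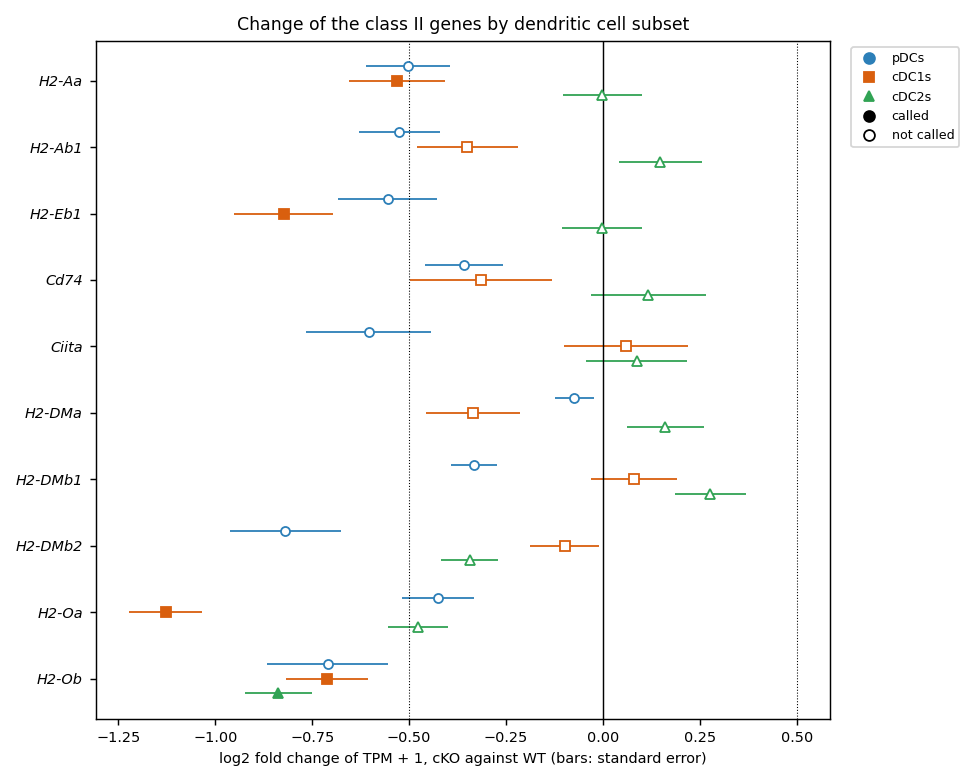
Log2 fold change of TPM + 1, cKO against WT (horizontal axis, bars are standard errors), of each class II gene (vertical axis) in pDCs, cDC1s and cDC2s. Filled symbols were called and dotted lines mark the fold limit of 0.5. The 10 pDC points all lie left of 0, the cDC2 points of the classical chains lie near 0, and H2-Ob lies between -0.71 and -0.84 in the 3 subsets.

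H2-Aa encodes the α chain of I-A, the class II molecule that C57BL/6 mice place on the cell surface. In WT cDC1s it was at 15275 and 15486 TPM and in cKO cDC1s at 10123 and 11185, so both cKO libraries were lower. The change was -0.53 ± 0.12 on the log2 scale (SE; adjusted p = 0.00737, limma), to 69.3% of the WT mean. This call was lost in 12 of 22 alternatives, among them those without each of the 4 cDC1 libraries, with adjusted p from 0.00381 to 1.
WT cDC2s held H2-Aa at 17154, 16111 and 14546 TPM and cKO cDC2s at 15347, 16717 and 15634. These ranges overlapped, and the log2 change of 0.00 (-0.0011) ± 0.10 changed sign with scaling. The difference of the genotype effect between cDC1s and cDC2s was -0.53 ± 0.16 (adjusted p = 0.0583) and was not called.
In pDCs H2-Aa was at 6561, 6019 and 6524 TPM in WT and at 3792, 5034 and 4738 in cKO libraries. No cKO value reached the lowest WT value, with a log2 change of -0.50 ± 0.11 (adjusted p = 0.0450).

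H2-Ab1 (chromosome 17, 34263227 to 34269418) encodes the β chain of I-A, the partner of H2-Aa. It was at 17763 and 15875 TPM in WT cDC1s and at 13276 and 13085 in cKO cDC1s, again with no overlap. The log2 change of -0.35 ± 0.13 was not called (adjusted p = 0.0570, limma) and had the opposite sign, 0.21, after quantile normalization. In cDC2s the WT values were 12595, 12335 and 14269 TPM and the cKO values 15191, 13160 and 15086, which overlapped, with a log2 change of 0.15 ± 0.11 (adjusted p = 0.359).
Values in pDCs were 5086, 4738 and 4989 TPM in WT and 2937, 3943 and 3481 in cKO, a log2 change of -0.53 ± 0.11 (adjusted p = 0.0355). The pair of I-A chains kept its ratio in pDCs, with 1.27 to 1.31 H2-Aa per H2-Ab1 in WT libraries and 1.28 to 1.36 in cKO libraries.

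H2-Eb1 encodes the β chain of I-E. C57BL/6 mice carry the H2 b haplotype, whose H2-Ea gene for the α chain of I-E is known to be silent, so this β chain has no usual partner. H2-Ea itself was at 0.180 to 5.5 TPM over all 16 libraries.
H2-Eb1 was at 7684 and 7153 TPM in WT cDC1s and at 3941 and 4449 in cKO cDC1s. The cKO mean was 56.5% of the WT mean, a log2 change of -0.82 ± 0.13 (adjusted p = 0.000887, limma). It was the largest change among the classical chains in cDC1s and fell out of the calls with no filter on low values, without cKO cDC1 library 1 (-0.74) and without WT cDC1 library 1 (-0.77).
In cDC2s it was at 7381, 6491 and 7040 TPM in WT and at 7452, 6288 and 7149 in cKO, with ranges that overlapped almost wholly. The change there was -0.00 (-0.0033) ± 0.10, and its sign changed with scaling. The genotype effect in cDC1s was lower than in cDC2s by a log2 difference of -0.82 ± 0.16, which missed the limit (adjusted p = 0.0147) and passed it under median-of-ratios scaling and with FPKM values.
The pDC values were 1630, 1511 and 1601 TPM in WT and 869, 1276 and 1120 in cKO. All cKO values were lower, with a log2 change of -0.56 ± 0.13 (adjusted p = 0.0544).

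Cd74, the invariant chain, occupies the groove of a new class II molecule. It was at 37762 and 34815 TPM in WT cDC1s and at 30156 and 28200 in cKO cDC1s, with both cKO libraries lower. The log2 change was -0.31 ± 0.18 and was not called (adjusted p = 0.199, limma). In cDC2s it was at 30646, 23399 and 34295 TPM in WT and at 34373, 28478 and 32055 in cKO. The groups overlapped (log2 change 0.12 ± 0.15, adjusted p = 0.618), and the sign turned without WT cDC2 library 2 (-0.04).
In pDCs Cd74 was at 17666, 16449 and 17008 TPM in WT and at 11585, 14809 and 13676 in cKO (log2 change -0.36 ± 0.10, adjusted p = 0.0949). Set against the summed classical chains, the Cd74 level was 1.30 to 1.34 times theirs in WT pDCs and 1.44 to 1.53 times in cKO pDCs. The same ratio was 0.904 and 0.927 in WT cDC1s and 0.982 and 1.10 in cKO cDC1s, and overlapped between genotypes in cDC2s.

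Ciita (chromosome 16, 10480014 to 10531064) encodes the coactivator on which the other genes depend, and it is known to start from different promoters in pDCs and cDCs, which gene values do not separate. It was at 93.5, 56.0 and 72.7 TPM in WT pDCs and at 48.6, 47.0 and 46.5 in cKO pDCs. The cKO libraries lay close together under a wide WT range, with a log2 change of -0.60 ± 0.16 (adjusted p = 0.0828, limma).
In cDC1s Ciita was at 270 and 265.4 TPM in WT and 293 and 265.4 in cKO. The cDC2 values were 271, 300.8 and 355 in WT and 384, 278 and 324 in cKO. Both pairs of groups overlapped, with log2 changes of 0.06 ± 0.16 in cDC1s (-0.11 under median-of-ratios scaling) and 0.09 ± 0.13 in cDC2s. In cDC1s H2-Aa and H2-Eb1 were called lower and Ciita was not called. The part of Ciita in those falls was not tested.

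H2-DMa encodes the α chain of H2-DM. Its start region overlaps Brd2 on the opposite strand, and strand was not stated for the counting, so reads of that stretch cannot be assigned with certainty. It was at 807 and 798 TPM in WT cDC1s and at 626 and 646 in cKO cDC1s (log2 change -0.34 ± 0.12, adjusted p = 0.0507, limma), not called, though it was under median-of-ratios scaling (-0.51, adjusted p = 0.00682). In cDC2s the WT values were 647, 579 and 720 and the cKO values 751, 654 and 767, which overlapped.
Among pDCs H2-DMa differed least of the 10 genes, at 544, 516 and 506 TPM in WT and 493, 502 and 492 in cKO (log2 change -0.07 ± 0.05, adjusted p = 0.458).

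H2-DMb1 and H2-DMb2 encode alternative β chains of H2-DM, from neighbouring genes. They are similar: in the reference transcripts 22.7% of the 50-base words of H2-DMb1 and 24.8% of those of H2-DMb2 occur in another gene, mainly each other, and reads were 50 bases long. How RSEM split the shared reads could therefore move both levels. With that limit, their proportion differed between the cDC subsets. H2-DMb1 was at 943 and 1017 TPM in WT cDC1s and at 527, 537 and 595 in WT cDC2s, a log2 difference of 0.83 ± 0.10 (adjusted p = 8.56e-05, limma).
H2-DMb2 was at 182 and 185 TPM in WT cDC1s and at 1019, 958 and 1073 in WT cDC2s, a difference of -2.46 ± 0.08 (adjusted p = 1.24e-08). H2-DMb1 was the higher of the pair in cDC1s and H2-DMb2 in cDC2s, and the subsets did not overlap for either gene. H2-DMb2 per H2-DMb1 was 0.193 and 0.182 in WT cDC1s, 1.93, 1.78 and 1.80 in WT cDC2s, and 0.633, 0.503 and 0.578 in WT pDCs. Of the 10 genes, 3 were called between WT cDC1s and WT cDC2s, against 31.7% of all genes, and the other one was H2-Oa.
With genotype, H2-DMb1 was at 1032 and 1037 TPM in cKO cDC1s and H2-DMb2 at 173 and 170. Neither was called (0.08 ± 0.11, or -0.09 under median-of-ratios scaling, and -0.10 ± 0.09). In cKO cDC2s H2-DMb1 was at 702, 603 and 709 TPM, above the WT range, and H2-DMb2 at 824, 791 and 786, under it. Their log2 changes were 0.28 ± 0.09 (adjusted p = 0.0567) and -0.34 ± 0.07 (adjusted p = 0.0102), so neither was called. The ratio H2-DMb2 per H2-DMb1 in cDC2s went from 1.78 to 1.93 in WT to 1.11 to 1.31 in cKO libraries without overlap.
In pDCs H2-DMb1 was at 500, 450 and 470 TPM in WT and 371, 391 and 365 in cKO, and H2-DMb2 at 317, 226 and 272 in WT and 127, 166 and 166 in cKO. Their log2 changes were -0.33 ± 0.06 (adjusted p = 0.0226) and -0.82 ± 0.14 (adjusted p = 0.0211), the second the largest of the 10 genes in pDCs.

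**Figure D3:**
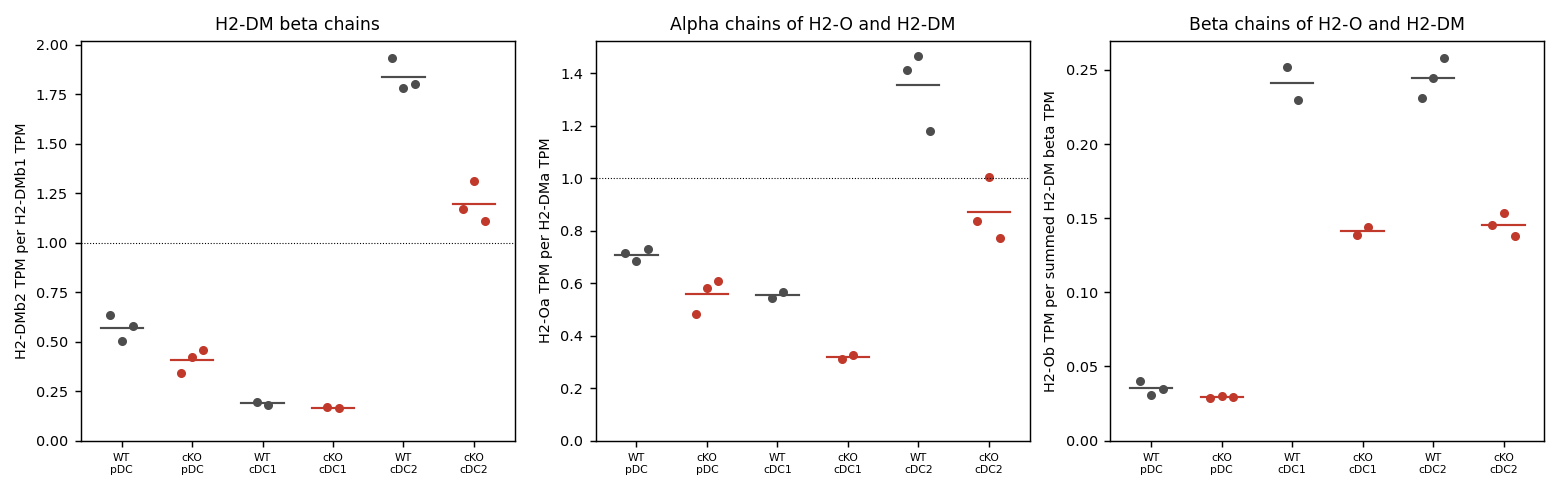
Ratios of TPM between chains (vertical axes, linear and from 0) in each library (points, WT grey, cKO red) of the 6 groups (horizontal axes), with lines at group means. H2-DMb2 per H2-DMb1 lies above 1 in cDC2s and under 1 in the other subsets, and H2-Ob per summed H2-DM β chains lies at 0.23 to 0.26 in WT and 0.14 to 0.15 in cKO cDCs.

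H2-Oa and H2-Ob encode the α and β chains of H2-O, which binds H2-DM and lowers peptide exchange, and which is best known from B cells. H2-Oa was at 439 and 453 TPM in WT cDC1s and at 195 and 212 in cKO cDC1s. The cKO mean was 45.6% of the WT mean, with a log2 change of -1.13 ± 0.09 (adjusted p = 4.46e-05, limma), the largest of the 10 genes in any subset. It was called in cDC1s in each of 22 alternatives, with adjusted p from 3.22e-05 to 0.00151.
In cDC2s H2-Oa was at 914, 848 and 851 TPM in WT and at 628, 656 and 594 in cKO. The groups were apart and the log2 change of -0.48 ± 0.08 passed on its adjusted p (0.00294) but not on the fold limit. It passed both without cKO cDC2 library 2 (-0.51). The cDC1 effect was lower than the cDC2 effect by a log2 difference of -0.65 ± 0.12, with an adjusted p of 0.0115, just over the limit. None of the 10 genes was called for that difference, against 2.56% of all genes. An unadjusted p under 0.05 was found for 5, with no all-gene share counted at that limit. Under median-of-ratios scaling 2 were called, H2-Oa and H2-Eb1.
WT cDC1s held less H2-Oa than WT cDC2s, by -0.96 ± 0.09 on the log2 scale (adjusted p = 8.36e-06). The pDC values were 389, 353 and 369 TPM in WT and 237, 292 and 299 in cKO (-0.43 ± 0.09, adjusted p = 0.0468).

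H2-Ob was at 284 and 276 TPM in WT cDC1s and at 167 and 174 in cKO cDC1s, and at 357, 366 and 431 in WT cDC2s and 222, 214 and 207 in cKO cDC2s. In both subsets all cKO libraries were lower, and both falls were called: -0.71 ± 0.11 in cDC1s (adjusted p = 0.000771, limma) and -0.84 ± 0.09 in cDC2s (adjusted p = 0.000297). The difference between these effects was 0.13 ± 0.14 (adjusted p = 0.551).
In cDC2s it was called in each of 21 alternatives. In cDC1s it was called in all but that without cKO cDC1 library 1 (-0.68, adjusted p = 0.0123).
In pDCs H2-Ob was the lowest of the 10 genes, at 32.6, 20.6 and 26.0 TPM in WT and 14.2, 16.7 and 15.6 in cKO. Its log2 change there was -0.71 ± 0.16 (adjusted p = 0.0468). The pDC level of H2-Ob was 5.83% to 8.38% of that of H2-Oa in WT libraries, against 60.9% and 64.7% in WT cDC1s and 39.1% to 50.6% in WT cDC2s.
Relative to H2-DM, both H2-O chains were lower in every cKO than in every WT library of each subset. H2-Oa per H2-DMa was 0.544 and 0.567 in WT and 0.312 and 0.328 in cKO cDC1s, and 1.18 to 1.47 in WT and 0.774 to 1.00 in cKO cDC2s. H2-Ob per summed H2-DM β chains was 0.252 and 0.230 in WT and 0.139 and 0.144 in cKO cDC1s, and 0.231 to 0.258 in WT and 0.138 to 0.154 in cKO cDC2s. In pDCs H2-Oa per H2-DMa was 0.684 to 0.729 in WT and 0.482 to 0.608 in cKO. There H2-Ob per summed H2-DM β chains was 0.03044 to 0.03988 in WT and 0.02852 to 0.02995 in cKO, so the groups nearly met.

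Lists of genes of other cells moved with some of these results. Over all genes, 92 rose and 27 fell of the 11299 tested in pDCs. Of the 11411 tested in cDCs, 1806 rose and 749 fell in cDC1s, and 410 rose and 406 fell in cDC2s. In cDC1s, 12 of 14 mature DC markers (genes such as Ccr7 and Fscn1 that DCs raise on activation) fell, from a sum of 1874 to 2932 TPM in WT to 551 to 654 in cKO libraries. In cDC2s 3 of the 14 fell, from 1671 to 2212 down to 1025 to 1253. Genes of proliferating cells rose in 7 of 10 in pDCs, 8 of 10 in cDC1s and 3 of 10 in cDC2s, with sums of 339 to 449 TPM in WT and 924 to 971 in cKO cDC1s. Of 12 monocyte and macrophage markers, 4 rose in cDC2s, from a sum of 1240 to 1711 in WT to 2611 to 3360 in cKO libraries. Of 6 neutrophil markers, all 6 were higher in every cKO cDC1 library than in every WT one, with sums of 1.49 to 16.7 TPM in WT and 22.4 to 42.2 in cKO. None of the 5 tested was called and 1 had an unadjusted p under 0.05 (limma). The share of all genes higher without overlap was not counted, so these 6 cannot be set against it. The sums of the subsets' own markers were lower in cKO cDCs. The cDC1 markers in cDC1s were at 4026 to 4254 TPM in WT and 3489 to 3504 in cKO. Of these 10, 3 were called lower (Cadm1, Clec9a and Itgae) and none higher. The cDC2 markers in cDC2s were at 1735 to 1978 in WT and 1343 to 1509 in cKO, with 4 of 10 called lower and 3 higher. In pDCs the sum of pDC markers was higher, at 18590 to 18800 TPM in WT and 19270 to 20490 in cKO. Of these 10, 1 was called higher and none lower. The part of all these lists in the changes of the class II genes was not tested.
H2-O is also a B cell product, and 9 of 10 B cell markers were in both tables, none at 0 in all libraries of a group. Their sum was 25.9 to 35.7 TPM in WT and 19.8 to 22.4 in cKO cDC1s, and 72.7 to 82.2 in WT and 56.2 to 58.7 in cKO cDC2s. In pDCs it was 67.9 to 96.2 in WT and 85.3 to 154 in cKO. Of the 6 tested, 1 fell in cDC1s (Ms4a1), 3 fell in cDC2s (Ms4a1, Blk and Cr2) and 1 rose in pDCs (Blk). Ms4a1 was at 17.7 and 21.2 TPM in WT and 6.17 and 6.45 in cKO cDC1s, and at 16.7, 21.5 and 12.4 in WT and 5.37, 5.87 and 4.80 in cKO cDC2s. In both cDC subsets it was thus lower in cKO libraries, as H2-Ob was. Cd79b, of the same list, was higher, at 1.66 and 4.58 TPM in WT and 6.41 and 8.04 in cKO cDC1s. In cDC2s Cd79b was at 29.1 to 35.6 in WT and 39.7 to 40.9 in cKO. Of the 9 listed, 3 were lower and 2 higher in every cKO cDC1 library, and 4 lower and 1 higher in cDC2s. Of all genes, 24.1% and 19.2% were lower in this way, and the share that was higher was not counted. In pDCs, where H2-Ob was lower too, Ms4a1 overlapped, at 2.06, 0.32 and 0.85 TPM in WT and 5.37, 0.55 and 1.17 in cKO. The part of B cell RNA in the H2-Oa and H2-Ob values was not tested.
cKO pDC library 1 stood apart: it had the lowest H2-Aa, H2-Ab1, H2-Eb1, Cd74, H2-DMb2, H2-Oa and H2-Ob of the pDC libraries, and also Cd79a, a B cell gene, at 38.3 TPM against 2.95 to 13.7 in the other pDC libraries, and S100a9, a neutrophil gene, at 42.2 against 1.75 to 17.9. Without it the log2 changes were -0.38 for H2-Aa, -0.41 for H2-Ab1, -0.40 for H2-Eb1, -0.26 for Cd74 and -0.69 for H2-DMb2, and 0 of the 10 genes were called, as with it. S100a9 was at 11.8 and 17.9 TPM in cKO pDC libraries 2 and 3, also above the WT values of 1.75 to 11.0. In all cKO pDC libraries the neutrophil markers summed to 29.5 to 137 TPM, against 8.77 to 29.3 in WT. The T cell markers summed to 16.6 to 18.2 against 4.91 to 7.94, and the monocyte and macrophage markers to 5726 to 5905 against 4867 to 5561. In pDCs the 1 T cell marker tested was called higher, and none of the other 2 lists was called. The part of these other cells' genes in the pDC values was not tested.

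The wider pathway was read from 28 further genes, of which 26 were tested in each table. In pDCs none was called, against 1.05% of all genes, and 3 had an unadjusted p under 0.05, with no all-gene share counted at that limit. In cDC1s 4 fell, against 6.56% of all genes, and none rose. In cDC2s 2 fell, against 3.56% of all genes, and none rose. Their median log2 change was -0.15 in cDC1s, beside 0.17 over all genes, and -0.08 in cDC2s, beside -0.03.
H2-Eb2, a class II β gene next to H2-Eb1 of less known function, was at 39.4 and 29.0 TPM in WT and at 3.32 and 6.14 in cKO cDC1s. The log2 change was -2.65 ± 0.23 (adjusted p = 4.95e-05, limma), to 13.8% of the WT mean, larger than that of any of the 10 genes. In cDC2s it was at 263, 347 and 290 TPM in WT and 175, 194 and 189 in cKO, without overlap (-0.68 ± 0.18, adjusted p = 0.0289).
The cDC1 effect was lower than the cDC2 effect by -1.97 ± 0.29 (adjusted p = 0.00370). This was the single called difference among the 26 pathway genes tested, against 2.56% of all genes. The call was lost in several of 20 alternatives (adjusted p up to 0.0226), which are given further below. WT cDC1s held 11.4% of the H2-Eb2 of WT cDC2s (-3.10 ± 0.21, adjusted p = 9.10e-07). In pDCs it was at 9.44, 7.43 and 8.37 TPM in WT and 4.40, 4.91 and 4.92 in cKO (-0.71 ± 0.12, adjusted p = 0.0184).

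Cd83, a surface protein of mature DCs that opposes the ubiquitin ligase MARCH1 and so slows class II turnover, was at 371 and 533 TPM in WT and 94.0 and 104 in cKO cDC1s (-2.16 ± 0.32, adjusted p = 0.000692, limma). In cDC2s it was at 435, 387 and 202 in WT and 112, 146 and 140 in cKO (-1.29 ± 0.26, adjusted p = 0.00778), a call lost in 12 of its 21 alternatives. Cd83 is also among the genes that rise as DCs mature, and Marchf1 was not called with genotype in any subset.
Of the 7 genes of the promoter complex, 1 was called with genotype: Rfx5, the DNA-binding subunit of RFX, at 44.2 and 40.4 TPM in WT and 30.1 and 29.0 in cKO cDC1s (-0.50 ± 0.11, adjusted p = 0.00638). It lay at the fold limit and lost the call in 8 of 22 alternatives, among them the fits without each of the 4 cDC1 libraries. In cDC2s Rfx5 was at 69.8, 77.4 and 83.0 in WT and 60.2, 52.5 and 56.5 in cKO (-0.44 ± 0.09, adjusted p = 0.0101).
Of the 6 genes that act on Ciita or class II transcription, Irf4, a factor of cDC2s, was called in cDC2s at 84.5, 54.0 and 56.9 TPM in WT and 33.3, 25.6 and 30.8 in cKO (-1.08 ± 0.19, adjusted p = 0.00400), a call lost with no filter and without any one of the cKO cDC2 libraries. Prdm1, a repressor of Ciita, was called in cDC1s from levels near 1 TPM, at 0.980 and 1.08 in WT and 0.110 and 0.210 in cKO (-0.81 ± 0.16, adjusted p = 0.00335), and was not called with a pseudocount of 5 (-0.22) or without any one of the 4 cDC1 libraries. Both cKO values of Prdm1 lie near the TPM that 3 reads on 2 kb are worth.
None of the 5 proteases and processing genes and none of the 5 neighbours in the class II region was called with genotype in any subset.

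**Figure D4:**
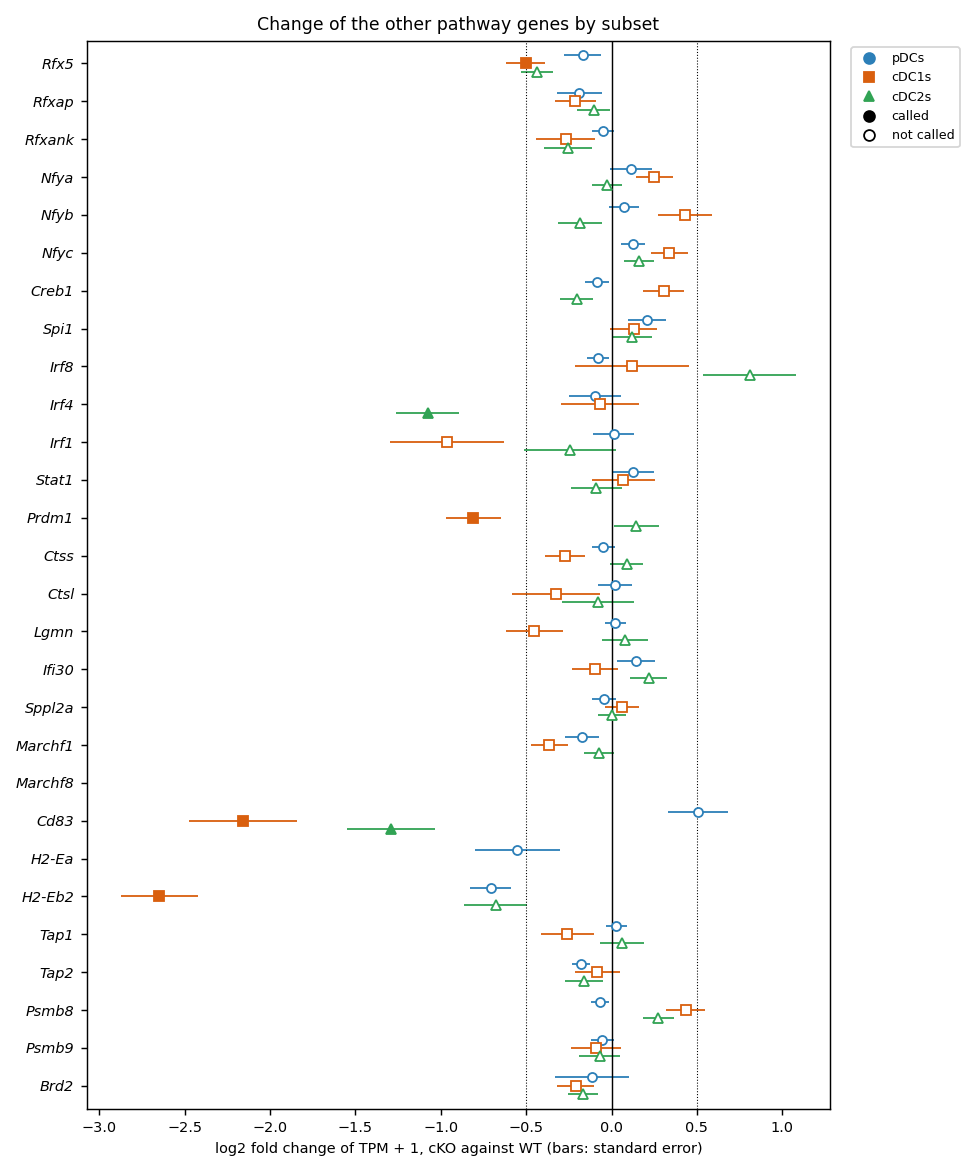
Log2 fold change of TPM + 1, cKO against WT (horizontal axis, bars are standard errors), of the further pathway genes (vertical axis) in pDCs, cDC1s and cDC2s, with filled symbols for called genes and dotted lines at the fold limit of 0.5. H2-Eb2 and Cd83 in cDC1s lie farthest left, at -2.65 and -2.16, and genes without a point were under the filter of a mean of 1 TPM.

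Between WT cDC1s and WT cDC2s, 14 of the 26 genes were called, 7 higher and 7 lower in cDC1s, against 31.7% of all genes, of which 1241 were higher and 2371 lower (1815 and 1718 under median-of-ratios scaling). The neighbours that serve class I presentation were higher in cDC1s: the peptide transporter genes Tap1 (1.00 ± 0.14 on the log2 scale, adjusted p = 0.000254, limma) and Tap2 (1.06 ± 0.12, adjusted p = 5.37e-05), and the immunoproteasome genes Psmb8 (0.89 ± 0.10) and Psmb9 (1.01 ± 0.13). These lie between the H2-DM genes and H2-Ob on chromosome 17.
Enzymes of the class II route were lower in cDC1s: Ctss, the protease that trims the invariant chain in DCs, at 45.8% of the cDC2 mean (-1.12 ± 0.11, adjusted p = 1.25e-05), Ifi30, the thiol reductase of endosomes, at 53.4% (-0.91 ± 0.12), and Lgmn, an asparagine-specific protease, at 52.4% (-0.93 ± 0.15). Ctsl, another cathepsin, was at 3.44 to 9.43 TPM as a mean of the cDC groups but at 1420 in WT pDCs.
Of the regulators, Irf8 was higher in cDC1s (5.67 ± 0.31), as were Rfxap (0.63 ± 0.11) and Marchf1 (0.53 ± 0.10), while Irf4 (-3.37 ± 0.21), Prdm1 (-1.50 ± 0.15) and Rfx5 (-0.84 ± 0.10) were lower. Rfxap lost its call without WT cDC1 library 1 (0.49), and Marchf1 lost its call without WT cDC1 library 2 (0.41) and without WT cDC2 library 3 (0.49).

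Across the 6 groups the order of mean levels differed between genes. For H2-Aa, WT cDC2s, cKO cDC2s and WT cDC1s overlapped at the top, followed without overlap by cKO cDC1s, WT pDCs and cKO pDCs. H2-Eb1 had the same order of its last 3 groups. For Ciita the 4 cDC groups overlapped with their neighbours, and both pDC groups lay under them without overlap. H2-Oa and H2-DMb2 ran otherwise: cDC2s were highest, and WT pDCs lay above cKO cDC1s for H2-Oa and above both cDC1 groups for H2-DMb2. H2-Ob placed WT cDC2s above WT cDC1s, then cKO cDC2s and cKO cDC1s, then the pDCs, with no overlap between any neighbours.
Over the 10 cDC libraries, the genes outside the 10 whose log2 levels followed H2-Ab1 most closely among 11411 were Orai1 (Pearson r = 0.933), Smad3 (0.926), Perm1 (0.911), Gm2a (0.910) and Ptpn9 (0.908). Those most like Ciita were Alpk1 (0.961), Cyth4 (0.948), Clcn7 (0.943), Tmc6 (0.942) and Wfs1 (0.926). Within the 10, H2-Ab1 followed H2-DMa (0.939) and Cd74 (0.858) but not H2-Aa (0.149), and its r with Ciita was 0.100. The r are descriptions across libraries that share 4 groups and their sorts.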

How the data were processed

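The authors' tables hold TPM and, separately, FPKM per gene and library for pDCs and cDCs, as deposited. Per the labels and the study's methods, total RNA of sorted cells was sequenced as single-end 50-base reads, filtered, aligned to mm10 with HISAT2 (2.0.4), mapped with Bowtie2 (2.2.5) and quantified with RSEM (1.2.12). The annotation and the strand setting were not given in the sources used here. Gene IDs were matched to symbols in RefSeq (GRCm38.p6), which named 17079 of 17128 and 17667 of 17721 genes. All 32 value columns were assigned, and no columns were identical.

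TPM are not counts, so limma (3.58.1, R 4.3.3) with a mean-variance trend was fitted on log2(TPM + 1) for genes with a mean of at least 1 TPM. Fold changes on that scale understate changes of low genes. The 6 pDC libraries were fitted by themselves, and the 10 cDC libraries together as 4 groups with 1 shared spread. In all 5 contrasts were read. Depth was estimated by finding, between 12 and 30 M reads, the total at which FPKM times transcript length came closest to whole reads, and floors cover counting error only. The fit and the depth estimate were tested on simulated data. Of 200 genes given a log2 change of 1, the fit called 79.0% in pDCs, 56.5% in cDC1s and 78.0% in cDC2s. A gene not called in cDC1s may thus still have changed. Same-numbered pDC libraries deviated together (correlations 0.31, 0.392 and 0.206), so the numbers were taken to pair pDC libraries, as a hint from the data. The block raised calls over all genes from 119 to 335 and changed no call of the 10 genes at the limits used. Each library came from pooled mice, so p-values measure the spread between pools, part of which may be technical.

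The 10 genes, the gene lists and the tests were chosen with earlier results of these data known. Named in the text were the 10 genes, the pathway genes called with genotype or between the WT cDC subsets, the 5 genes most like H2-Ab1 and Ciita, and Trim33. H2-Ea, Ctsl, Ccr7, Fscn1, Cadm1, Clec9a, Itgae, Ms4a1, Blk, Cr2, Cd79a, Cd79b and S100a9 were chosen after their values were seen. Alternatives were pseudocounts of 0.5 and 5, no filter and a mean of at least 5 TPM, median-of-ratios scaling, quantile normalization, FPKM, no trend, an adjusted p up to 0.05 as the sole limit, the replicate block, each library left out and each cDC subset alone. A crossed block in cDC1s, and in pDCs the block with an adjusted p up to 0.05, were added after seeing the data. An adjusted p up to 0.05 as the sole limit can add calls but cannot lose one. Leaving out a library of 1 cDC subset does not move the log2 change with genotype in the other, but only its spread. Counts of alternatives that kept a call include these settings.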

Additional observations from a re-analysis of the deposited data

Results flagged for a closer look

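The genotype effect on H2-Eb2 differed between cDC1s and cDC2s, by -1.97 on the log2 scale in the test of the difference itself (SE 0.29, adjusted p = 0.00370, limma). H2-Eb2 was at 39.4 and 29.0 TPM in WT and at 3.32 and 6.14 in cKO cDC1s, where both cKO libraries were lower. Over 20 alternatives the difference ranged from -2.33 to -1.35 with adjusted p from 0.00229 to 0.0226. It was not called with no filter on low values, with the replicate block, without cKO cDC1 library 1 (-1.61), without WT cDC1 library 1 (-1.76), without cKO cDC2 library 2 (-1.94) or without cKO cDC2 library 3 (-1.96).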

How the results depend on the processing

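Of the recomputed counts of called class II genes, 87 stayed within 1.5 times the reported count and 13 did not. With an adjusted p up to 0.05 as the sole limit the counts were 6 in pDCs, 3 in cDC2s, 2 for the difference between cDC1s and cDC2s, and 6 between WT cDC1s and WT cDC2s. With no filter on low values 2 were called in cDC1s. Median-of-ratios scaling gave 2 for the difference and 5 for the WT subsets, and quantile normalization and FPKM gave 1 each for the difference. Leaving out 1 library gave 0 in pDCs, 1 to 4 in cDC1s, 1 to 2 in cDC2s, 0 for the difference and 3 to 4 for the WT subsets. The cause was not tested.

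The sign of a small log2 change turned for H2-Ab1 in cDC1s after quantile normalization (0.21), for Ciita in cDC1s with median-of-ratios scaling (-0.11) and with FPKM (-0.0059), and for H2-DMb1 in cDC1s with median-of-ratios scaling (-0.0939). H2-Aa in cDC2s turned to 0.0505 with median-of-ratios scaling, 0.0572 after quantile normalization and 0.041 with FPKM, and H2-Eb1 in cDC2s to 0.0483, 0.055 and 0.0388 in that order. Leaving out 1 library gave -0.0108 to 0.1304 for Ciita in cDC1s and, in cDC2s, -0.0653 to 0.0537 for H2-Aa, -0.0541 to 0.0683 for H2-Eb1, -0.0396 to 0.2362 for Cd74 and -0.0309 to 0.2005 for Ciita. The cause was not tested. Quantile normalization sets genes of equal rank to equal values, so it gives H2-Aa in cDC1s a change of 0 by construction.

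The block of replicate numbers gave 0 called genes in pDCs (8 with an adjusted p up to 0.05 as the sole limit, added after seeing the data), 3 in cDC1s, 1 in cDC2s, 0 for the difference and 3 for the WT subsets. Same-numbered libraries correlated at -0.233 in cDC1s and at -0.249, 0.253 and -0.165 in cDC2s, so these numbers were not taken as pairs. The crossed pairing of cDC1s, added after seeing the data, gave 3.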
